A study of Capra hircus with 3 samples.

Results

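KITLG, MLANA and TRPM1 are 3 genes of the pigment axis, and they were chosen by name from the 16739 genes measured in fetal goat skin. KITLG encodes the ligand that pigment cells need, and MLANA and TRPM1 are genes of the pigment cells themselves. Back skin of fetuses of the Northern Shaanxi White Cashmere goat, a white-coated breed, was profiled by droplet 3′ single-cell RNA sequencing at embryonic days 60, 90 and 120 (E60, E90 and E120), when hair follicles are induced, formed and differentiated. A stage was represented by 1 library, for which the cells of 2 or more fetuses were mixed before barcoding, so fetuses cannot be compared. E60 and E90 cells came from whole skin opened with collagenase IV and pipetting. E120 cells came from follicles picked out with forceps after collagenase and dissociated with TrypLE, a trypsin-like enzyme, so the effects of stage and preparation on E120 values cannot be told apart. No group carried a treatment or an introduced allele.

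Melanocytes of the skin and hair descend from the neural crest and reach the epidermis and follicle as unpigmented precursors called melanoblasts. KITLG, also called stem cell factor, is a membrane-bound or shed ligand that binds the receptor KIT on melanoblasts, mast cells and blood progenitors, and keratinocytes, endothelial cells and dermal cells are known sources of it. MLANA is a melanosome protein that helps the fibril protein PMEL to mature. TRPM1 is a cation channel of melanocytes and retinal bipolar cells, and both genes are known targets of MITF, the master transcription factor of melanocytes.

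The libraries of E60, E90 and E120 held 6849, 6931 and 6896 cells, with medians of 8579, 3714 and 13064 unique molecular identifiers (UMIs) per cell. Median mitochondrial shares were 4.52% at E60, 11.1% at E90 and 5.26% at E120, and any pair of libraries shared 9 to 13 cell barcodes. Of 37 clusters, 34 drew over 90% of their cells from 1 library. A class was named "-like" from marker genes, without the 3 genes, in 29 clusters, and no cluster was named melanocyte-like. The 12 measured epithelial markers summed to 5.03 counts per 1000000 counts (CPM) at E60, 5294 CPM at E90 and 1858 CPM at E120, so the E60 library held almost no epithelium. The 13 melanocyte markers summed to 7.61 CPM at E60, with TYR, OCA2 and MLPH at 0, to 47.7 CPM at E90, with TYRP1 at 0, and to 14.6 CPM at E120, with TYR, GPR143 and PAX3 at 0. Ranges in parentheses are exact 95% intervals for counting error, which leave out the spread between fetuses. For levels and folds they treat UMIs as independent and also leave out the spread between cells.

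KITLG was higher at each later stage, whereas MLANA and TRPM1 peaked at E90. In the E60 library 533 KITLG UMIs gave a level of 8.19 CPM (7.51 to 8.92). The 1128 UMIs of E90 gave 37.3 CPM (35.1 to 39.5), and the 28697 UMIs of E120 gave 307 CPM (304 to 311). The level was 4.55-fold higher at E90 than at E60 (interval 4.10 to 5.05), and 8.25-fold higher at E120 than at E90 (7.77 to 8.76). MLANA was at 1.35 CPM (1.08 to 1.67) at E60, from 88 UMIs, and at 26.2 CPM (24.4 to 28.1) at E90, from 794 UMIs. No MLANA UMI was listed in the 6896 cells of E120, which allows a level of up to 0.0321 CPM (3 UMIs in the library) and a share of up to 0.0435% of cells with a UMI. This limit is on cells with a UMI, not on cells that express the gene. A gene listed at 0 may have been in a few cells before the table was made, since 3 genes and 19 genes of the E120 library were in 1 and in 2 cells, against 387 in 3 cells. Limits given for a count of 0 thus hold for the listed counts only. TRPM1 was at 1.18 CPM (0.934 to 1.48) at E60, from 77 UMIs, and at 29.4 CPM (27.5 to 31.4) at E90, from 891 UMIs. Its 17 UMIs of E120 gave 0.182 CPM (0.106 to 0.291).

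**Figure D1:**
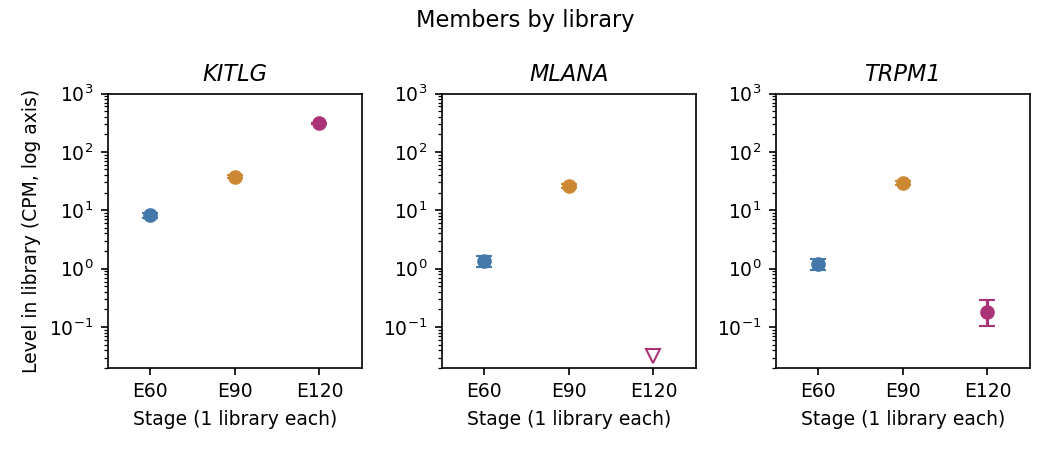
Level of each gene in the E60, E90 and E120 libraries, in CPM on a log axis, with 1 library per stage; bars are exact 95% counting intervals, and the open triangle is the limit of 3 UMIs for a count of 0. KITLG is at 8.19, 37.3 and 307 CPM, while MLANA and TRPM1 are highest at E90, at 26.2 and 29.4 CPM.

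From E60 to E90, MLANA was 19.4-fold higher (15.5 to 24.4) and TRPM1 24.9-fold higher (19.7 to 31.8). These intervals leave out the spread between cells, and 1 E60 cell held 89.8% of the MLANA UMIs and 66.2% of the TRPM1 UMIs. From E90 to E120, TRPM1 was 162-fold lower (100.4 to 279). By the listed counts MLANA was at least 816-fold lower, taken against the same limit of 3 UMIs. This is no lower bound if cells with MLANA were lost from the E120 values before they were listed. All 3 genes were thus at least 2-fold higher at E90 than at E60 on the log2(CPM + 1) scale, as were 24.0% of the 7958 genes with at least 5 CPM in 1 of those libraries, while 7.45% were at least 2-fold lower. KITLG was also at least 2-fold higher at E120 than at E90, as were 9.15% of 8029 genes, whereas MLANA and TRPM1 were at least 2-fold lower, as were 25.7%. From E60 to E120, KITLG was 37.5-fold higher (34.4 to 40.9), a direction in which 19.8% of 7543 genes passed 2-fold, against 21.2% in the other. MLANA and TRPM1 were under 5 CPM in both of those libraries and were not called. With 1 library per stage, the size of these differences relative to the spread between fetuses is not known. In whole libraries, fewer cells of a type and less RNA per cell cannot be told apart.

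KITLG was found in 3.71% of E60 cells, 13.7% of E90 cells and 55.2% of E120 cells. With all cells thinned to 2000 UMIs, a depth that every cell reached, the shares were 1.12%, 7.20% and 29.9%, in the same order. The highest KITLG count of any cell was 12 in the E60 library, 8 in E90 and 78 in E120.

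Among the captured E60 cells, which held almost no epithelium, KITLG was mostly a transcript of vessel cells. The 135 cells of the endothelial-like cluster led by DEPP1 and PLVAP had 135 CPM (120 to 151) and 56.8% of the library's KITLG UMIs in 1.97% of its cells. KITLG was in 71.1% of these cells, whose median depth was 15508 UMIs. The mural-like cells, the contractile cells around vessels, followed at 71.0 CPM (59.9 to 83.6) with 27.0% of the UMIs. The dermal-like clusters, which are fibroblasts and their relatives, ranged from 0.743 to 3.12 CPM, and over all 5825 dermal-like cells the level was 1.23 CPM. Myeloid-like cells, taken as cells that should lack KITLG, had it in 1.74% of cells at a median of 8745 UMIs and at 2.70 CPM (0.557 to 7.90). The intervals of the dermal-like clusters overlapped that of the myeloid-like cells, so the low dermal-like level is not read as expression. The myeloid-like interval is wide, so this overlap cannot tell low expression from background.

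At E90 KITLG was highest in the endothelial-like cluster, at 188 CPM (137 to 252) in 55 cells. The follicle epithelium led by CXCL10, SEMA3E and LHX2 followed at 48.3 CPM (42.8 to 54.4) in 1212 cells. The haemoglobin-led cells had 35.1 CPM (25.5 to 47.1) and KITLG in 12.2% of cells at a median of 3591 UMIs. Red blood cells should lack the gene, but these cells are no clean reference, since they held epithelial markers at 5150 CPM and dermal markers at 3090 CPM beside haemoglobin-list genes at 55386 CPM. The follicle epithelium had it in 17.7% of cells at a median of 3903 UMIs, and its CPM interval overlapped that of the haemoglobin-led cells. The other epithelial-like clusters had 22.0 and 23.5 CPM, and the cluster led by BMP3 and COL6A3 had 20.5 CPM. These levels lay below that of the haemoglobin-led cells, which are too mixed to set a background. The levels are thus read neither as expression by the clusters nor as background. The part of free RNA, doublets or low expression in them was not tested. The largest E90 cluster, unnamed and led by mitochondrial genes, had 37.5 CPM and 50.4% of the UMIs in 55.6% of the cells.

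At E120 most KITLG was in the follicle epithelium, and its level spanned a wide range between parts of the follicle. The 687 cells of the epithelial-like cluster led by ALDH1A3, KITLG and NPTX2 had 1392 CPM (1367 to 1417), the highest level of the 37 clusters. They were 9.96% of the cells and held 41.4% of the library's KITLG UMIs. KITLG was in 98.5% of them, with a median of 16 UMIs per cell, and in 86.6% after thinning to 2000 UMIs. The cluster led by HS3ST2 and the hair shaft keratin gene KRT35 had 346 CPM (337 to 354), with KITLG in 93.9% of 1073 cells. The unnamed cluster led by SHH, the ligand of the hedgehog pathway, and by DCN had 389 CPM (379 to 400). There KITLG was in 52.5% of 1060 cells, and 8.02% of the cells had at least 20 UMIs, so cells of this cluster were unequal at a median depth of 12618 UMIs.

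The second highest of all clusters, at 516 CPM (454 to 583), was the unnamed E120 cluster of 125 cells led by HEPHL1 and DSG4. Mitochondrial genes were also among its leading genes, and its median depth was 3536 UMIs. The other epithelial-like clusters of E120 had less. Cycling cells led by HIST1H1B and CENPF had 160 CPM (153 to 169), and late shaft cells led by GPRC5D and KRTAP11-1 had 137 CPM (129 to 145). The inner root sheath cells led by KRT27, KRT71 and KRT25 had 19.7 CPM (16.9 to 22.7), the lowest of the 18 E120 clusters, although their median depth was 17156 UMIs. Cells led by GATA3 and FGF2 had 25.3 CPM (21.9 to 29.0), and the intervals of these last 2 clusters overlapped. Outside the epithelium, endothelial-like cells had 239 CPM (221 to 258), the mural-like cluster led by ABCC9 and TPM2 86.9 CPM (58.2 to 125) and papilla-like cells 37.8 CPM (28.0 to 50.0). Mast-like cells, which carry the receptor, had 54.2 CPM (33.1 to 83.7) and KITLG in 20.9% of cells at a median of 3618 UMIs. The papilla-like level was not above that of the mast-like cells, and the mural-like interval overlapped theirs.

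**Figure D2:**
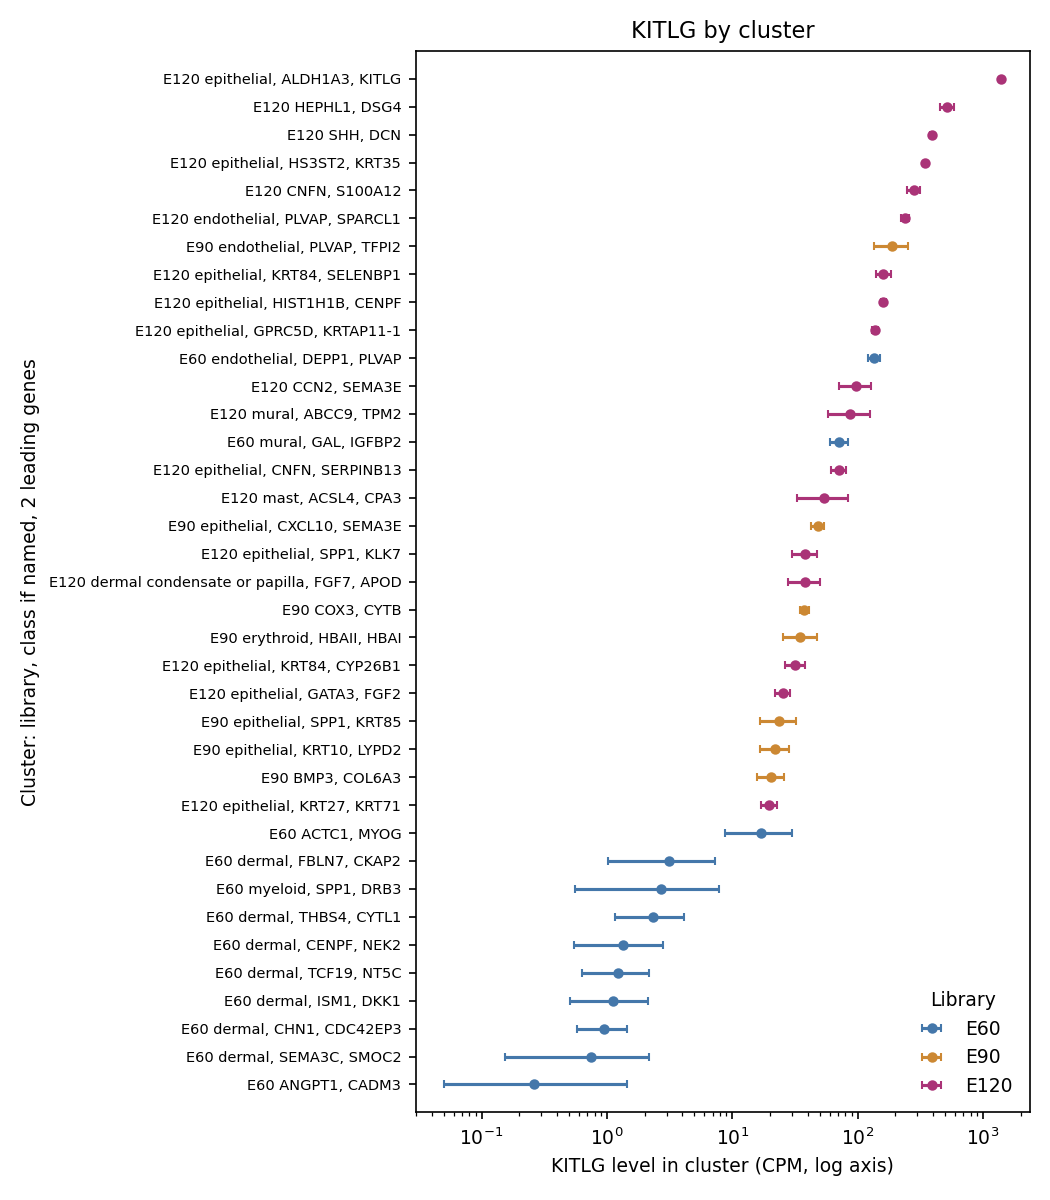
KITLG level in CPM, on a log axis, in the cells of each cluster's main library, with exact 95% counting intervals; each of the 37 clusters is labelled by library, class where named, and its 2 leading genes. The E120 cluster led by ALDH1A3 is at 1392 CPM, E60 dermal-like clusters lie at or under 3.12 CPM, and the endothelial-like clusters of the 3 libraries lie between 135 and 239 CPM.

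KITLG itself took part in the clustering, so a cluster rich in KITLG is no independent finding. With the 3 genes and the pigment gene lists left out of the variable genes, the highest E120 cluster was led by DCN and SHH and had 799 CPM in 811 cells, which included 47.5% of the cells of the ALDH1A3-led cluster. With genes centred within libraries, the highest cluster, also led by DCN and SHH, had 826 CPM in 768 cells. At Leiden resolution 0.5 it had 802 CPM in 493 cells and was led by CNFN and KRT23. The inequality between cells does not depend on clusters: the 370 E120 cells with at least 20 KITLG UMIs were 5.37% of cells and held 36.7% of the KITLG UMIs.

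Within endothelial-like and mural-like cells KITLG differed less between stages than it did between whole libraries, whereas within epithelial-like cells the ratio was close to that of the libraries. In endothelial-like cells it was 132 CPM at E60, 199 CPM at E90 and 239 CPM at E120, in 137, 57 and 362 cells. The level was 1.50-fold higher at E90 than at E60 (1.09 to 2.04), and 1.20-fold higher at E120 than at E90, with an interval from 0.898 to 1.64 that includes no difference. Between all mural-like cells of E60 and of E120, at 71.0 and 78.6 CPM in 209 and 68 cells, the ratio was 1.11 (0.734 to 1.62). The E120 mural-like cells also held hair shaft or inner root sheath markers at 1766 CPM. The part of free RNA in their KITLG level was not tested. Epithelial-like cells were 8.14-fold higher at E120 (7.35 to 9.04), at 37.2 and 303 CPM in 2127 and 4610 cells, and the clusters behind these values were different ones. The epithelial-like level of E90 was close to that of the haemoglobin-led cells, and the part of free RNA in this ratio was not tested.

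At E60 a single cell held most of the MLANA UMIs and the larger part of the TRPM1 UMIs. That cell had 79 of the 88 MLANA UMIs, or 89.8%, and 51 of the 77 TRPM1 UMIs, or 66.2%. It also carried 27 UMIs of PMEL, the fibril protein of melanosomes, 11 of the melanosome transporter gene SLC45A2 and 10 of KIT. It had no UMI of TYR, TYRP1 or DCT, the melanin synthesis enzymes, and none of KITLG. This cell did not pass the filter on gene number and mitochondrial share described below, which kept 6801 of 6849 E60 cells. Another cell had 6 MLANA and 2 TRPM1 UMIs, and 3 more cells had 1 MLANA UMI each. Without the cell with the most UMIs in each library, the log2 ratio of E90 over E60 was 4.48 in place of 3.53 for MLANA and 4.32 in place of 3.80 for TRPM1.

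At E90 MLANA was in 359 cells and TRPM1 in 334, but most of these cells had a trace. Of the cells with MLANA, 260 had 1 UMI, 62 had at least 3 and 10 had at least 10, up to 53. The 10 cells with the most MLANA held 29.5% of its UMIs, and the 10 with the most TRPM1 held 35.0% of the TRPM1 UMIs. The 14 cells with at least 10 UMIs of either gene had 4 to 53 MLANA UMIs (median 12.5) and 9 to 75 TRPM1 UMIs (median 18), so none lacked the other gene. KIT was found in 12 of these 14 cells, TYR in 12, DCT in 3, KITLG in 1 and TYRP1 in none.

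**Figure D3:**
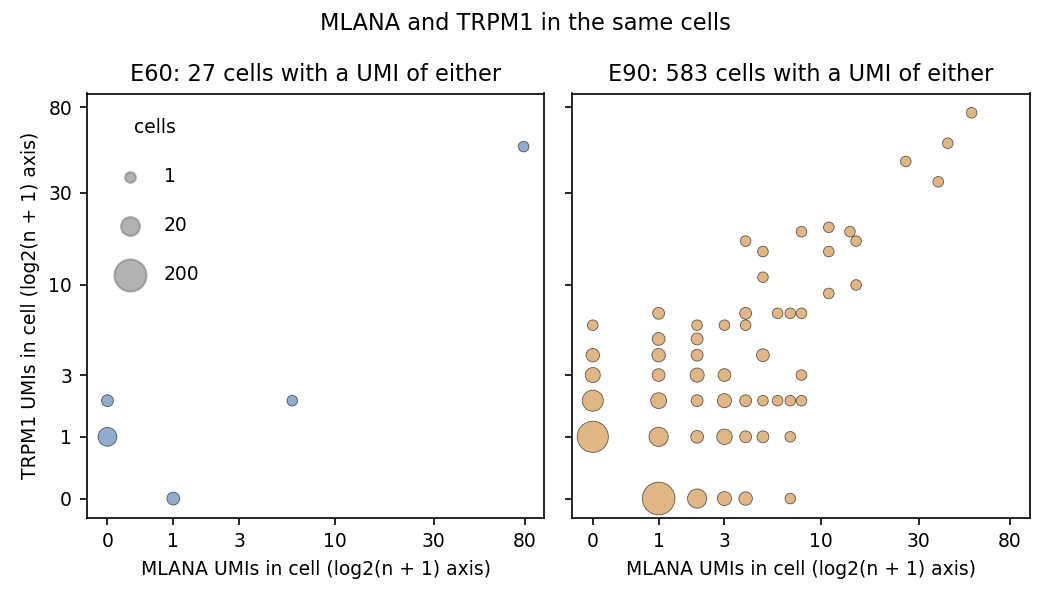
MLANA and TRPM1 UMIs in each cell with a UMI of either gene, at E60 (27 cells) and E90 (583 cells), on log2(n + 1) axes; the area of a point grows with the number of cells that share the pair of counts. At E60 a lone cell has 79 and 51 UMIs, and at E90 all cells with at least 10 UMIs of either gene have both.

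MLANA and TRPM1 were found in the same E90 cells at a higher rate than their shares in the library. TRPM1 was in 30.6% of the 359 cells with MLANA and in 3.41% of the cells without, at median depths of 3751 and 3712 UMIs. Among the 62 cells with at least 3 MLANA UMIs, TRPM1 was in 83.9%, PMEL in 75.8%, SLC45A2 in 58.1%, KIT in 46.8%, TYR in 40.3% and PAX3, a transcription factor of neural crest cells, in 37.1%. DCT was in 8.06% of them and TYRP1 in none. Among the 260 cells with 1 MLANA UMI, TRPM1 was in 16.5%. KITLG was in 14.8% of the cells with MLANA and in 13.7% of those without.

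Cells picked out by other melanocyte markers were rich in MLANA and TRPM1 at E90, whereas at E60 few of them had either gene. Cells with at least 3 UMIs from at least 2 of the 13 markers numbered 9 at E60, 79 at E90 (1.14%, 0.903 to 1.42) and 9 at E120. The 79 E90 cells held 418 MLANA UMIs, or 52.6%, at 1105 CPM (1001 to 1216), against 12.6 CPM (11.3 to 13.9) in the other E90 cells. They held 520 TRPM1 UMIs, or 58.4%, at 1374 CPM (1259 to 1498), against 12.4 CPM (11.2 to 13.7). MLANA was in 65 of them and TRPM1 in 67. The share of the library's UMIs depends on the rule: with at least 2 marker UMIs it was 56.8% for MLANA and 63.4% for TRPM1, and with at least 5 it was 40.7% and 47.1%. KIT was at 283 CPM (232 to 342) in these cells and at 14.8 CPM (13.5 to 16.3) elsewhere, whereas KITLG was at 26.4 CPM (12.7 to 48.6) and at 37.4 CPM (35.2 to 39.6). The receptor was thus higher in these cells, and the ligand was not.

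The 9 E60 cells held 85 of the 88 MLANA UMIs and 54 of the 77 TRPM1 UMIs, mostly in the cell described above. MLANA was in 2 of these 9 cells and TRPM1 in 3. The 9 E120 cells had no MLANA or TRPM1 UMI, which allows up to 24.9 CPM in them (3 UMIs). They had 19 UMIs of DCT, which is 1 of the 13 markers, and KITLG at 1201 CPM (1014 to 1414). Cells called by the same rule thus differed between E90 and E120, with MLANA and TRPM1 in the former and a high level of the ligand in the latter. DCT was at 157 CPM in the E120 cells, found in 8 of them, and at 21.1 CPM in the 79 E90 cells. At E120 DCT was more frequent in cells with more KITLG, so the KITLG level of these cells is not independent of the rule.

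**Figure D4:**
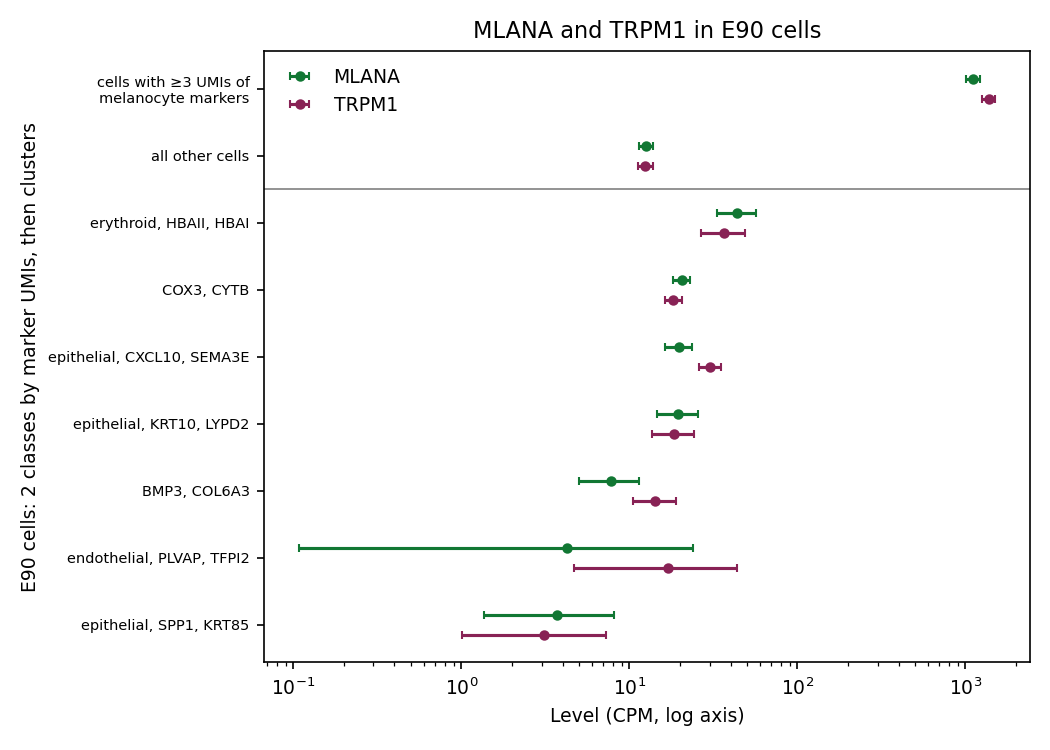
MLANA and TRPM1 levels in E90 cells, in CPM on a log axis with exact 95% counting intervals: above the line, cells with at least 3 UMIs of melanocyte markers and all others, and below it, the 7 clusters made mainly of E90 cells. The marker-called cells are at 1105 and 1374 CPM, while the clusters lie between 3.09 and 43.8 CPM.

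No E90 cluster was melanocyte-like, and the cells richest in both genes lay in a mixed cluster. That cluster was led by ACTC1, MYOG and CNMD and held 82 E60 cells, many with skeletal muscle or glial genes, and 13 E90 cells. The 13 E90 cells had 230 MLANA UMIs, or 29.0% of the library's, at 2633 CPM, and 289 TRPM1 UMIs, or 32.4%, at 3308 CPM. MLANA was in 11 of them, KIT in 9, TYR in 10 and KITLG in 1, and the muscle genes ACTC1 and MYOG were in none. Clustered again on its own, the mixed cluster gave a melanocyte-like group of 11 E90 cells and 1 E60 cell, led by TRPM1, MLANA and PMEL. This second clustering was chosen after seeing the data.

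The remaining MLANA and TRPM1 UMIs of E90 were spread over clusters of other kinds. Some of the 14 cells with at least 10 UMIs of either gene lay in these clusters. They were in the mitochondrial cluster, the follicle epithelium and the cluster led by BMP3 and COL6A3. The haemoglobin-led cells, with the other markers given above, had MLANA in 8.91% of 303 cells, up to 8 UMIs, and TRPM1 in 5.94%. MLANA was in 5.52% of the cells of the mitochondrial cluster, 4.46% of the follicle epithelium and 6.15% of the suprabasal cells led by KRT10, at similar median depths of 3533 to 3911 UMIs. TRPM1 was in 4.90%, 4.95% and 5.81% of these cells. These shares lay at or below those of the haemoglobin-led cells, which are too mixed to set a background. The shares are thus read neither as expression by the clusters nor as background. The part of cells with many UMIs of both genes, of free RNA, of doublets and of low expression in the shares was not tested. The level was not uniform, since MLANA was at 43.8 CPM (33.0 to 57.0) in the haemoglobin-led cells and at 3.71 CPM (1.36 to 8.08) in the epithelial-like cells led by SPP1 and KRT85. The count ratio of MLANA to TRPM1 was 0.804 (0.705 to 0.916) in the marker-called cells and 1.01 (0.876 to 1.17) in the others, and the intervals overlapped.

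TRPM1 without MLANA was found in endothelial-like cells of E60 and E120 and in cells with glial genes. In the 3 Schwann-like groups of the mixed cluster, mostly E60 cells, it had 3, 4 and 1 UMIs in 19, 15 and 12 cells, at 17.7, 35.4 and 10.1 CPM, with MLANA at 0. At E60, 13 of 137 endothelial-like cells had TRPM1, with 14 UMIs or 6.10 CPM (3.33 to 10.2), against 3 of 5825 dermal-like cells. At E120, 13 of 362 endothelial-like cells had it, with 15 of the library's 17 UMIs or 5.44 CPM (3.05 to 8.98), and the other 2 UMIs were in papilla-like cells. MLANA was at 0 in these E60 and E120 endothelial-like cells, which allows up to 1.31 and 1.09 CPM (3 UMIs). The ratio of the TRPM1 levels was 0.892, with an interval from 0.402 to 2.00. The E90 endothelial-like cells had 4 TRPM1 UMIs in 57 cells, at 16.2 CPM (4.42 to 41.6), a level that includes that of the haemoglobin-led cells. No cell of these endothelial-like groups had more than 2 TRPM1 UMIs. The 209 E60 and 68 E120 mural-like cells had no UMI of TRPM1 or MLANA. Among the RefSeq genes of assembly ARS1.2, MIR211 overlapped TRPM1, and no other gene overlapped KITLG or MLANA.

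DCT, dopachrome tautomerase, a melanin synthesis gene, was found in a larger share of the E120 cells with more KITLG. DCT was at 10.4 CPM at E120, against 0.123 CPM at E60 and 1.55 CPM at E90, while MLANA, TYR and PAX3 were at 0. It was highest in the ALDH1A3-led cluster, at 41.9 CPM (37.6 to 46.4), and in the SHH-led cluster, at 23.5 CPM (21.0 to 26.3). DCT was in 4.56% of the 3089 cells without KITLG, in 7.47% of the 2008 cells with 1 to 4 KITLG UMIs, in 18.5% of the 1429 cells with 5 to 19, and in 44.9% of the 370 cells with at least 20. Median depths in these groups were 10951, 13010, 15707 and 14650 UMIs, so the last step did not come with more depth.

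At E120 most of the receptor of KITLG lay in other cells than the ligand, while at E60 KIT was in a larger share of the cells with KITLG than of those without. KIT was at 16.6, 18.2 and 5.44 CPM at E60, E90 and E120. At E120, the mast-like cells had 281 of the 508 KIT UMIs, at 762 CPM (675 to 856) and in 86.8% of 91 cells, while the epithelial-like cells, with 303 CPM of KITLG, had KIT at 1.03 CPM (0.811 to 1.29). At E60 endothelial-like cells had KIT at 51.0 CPM (42.1 to 61.1) beside their KITLG. KIT was in 29.5% of the E60 cells with KITLG (24.0 to 35.6) and in 11.8% of those without (11.1 to 12.6), at median depths of 11322 and 8526 UMIs. At E90 these shares were 6.62% and 5.57%, with overlapping intervals, and at E120 3.05% and 4.69%. Of the 7 clusters made mainly of E90 cells, KIT was highest in the epithelial-like cells led by SPP1 and KRT85, at 47.6 CPM (37.6 to 59.5), which is below the 283 CPM of the marker-called cells.

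Of 20 listed genes of melanin synthesis and the melanosome, 18 were in the table. MLANA and TRPM1 were highest at E90, as were 10 of these 18, while 7 were highest at E120 and 1 at E60. No share of all genes highest at each stage stands beside these counts, so they are descriptions only. They include genes with few UMIs, such as SLC24A5 with 3, 35 and 3. From E60 to E90, 7 had at least 5 CPM, and 5 of them were at least 2-fold higher and 0 lower, against 24.0% and 7.45% of all genes tested, with a median log2 ratio of 1.92 against 0.25 over all 7958 genes. PMEL was at 2.40, 15.8 and 1.22 CPM at E60, E90 and E120, and SLC45A2 at 0.830, 6.18 and 0.107 CPM, so both peaked at E90 as MLANA did. TYR, the rate-limiting enzyme of melanin synthesis, was at 4.39 CPM at E90 and listed at 0 at E60 and E120. TYRP1 had 5, 0 and 3 UMIs. From E90 to E120, 4 of 10 genes were at least 2-fold higher, namely DCT, GPNMB, RAB38 and MREG, and 2 were lower, PMEL and SLC45A2, against 9.15% and 25.7% of all genes. GPNMB, a glycoprotein of melanosomes and macrophages, was at 2.55, 266 and 560 CPM and was highest in the E120 cluster led by HEPHL1 and DSG4, at 1753 CPM. MREG, a melanosome transfer protein, was at 1.57, 4.56 and 67.4 CPM.

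Of the 9 listed transcription factors and receptors, 4 had at least 5 CPM at E60 or E90, and 3 of these were at least 2-fold higher at E90 and 0 lower, against 24.0% and 7.45% of all genes. PAX3 was at 0.523, 6.57 and 0 CPM, which followed MLANA. SOX10, a factor of the neural crest, was at 0.492, 1.98 and 0.086 CPM, and MITF at 1.72, 4.43 and 1.54 CPM, both highest at E90 but under the 5 CPM needed for a call. TFAP2A, also a keratinocyte factor, was at 2.49, 296 and 159 CPM. MC1R, the melanocortin receptor, had 0, 0 and 4 UMIs. From E90 to E120, 0 of 4 were higher and 2 were lower, KIT and PAX3, against 9.15% and 25.7%.

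Of the 13 niche genes, 8 had at least 5 CPM at E60 or E90, and 4 of these, KITLG included, were at least 2-fold higher at E90 and 1, the WNT inhibitor DKK1, was lower, against 24.0% and 7.45% of all genes. From E90 to E120, 2 of 8 were higher, KITLG and FGF2, and 2 were lower, EDN1 and DKK1, against 9.15% and 25.7%, so the share lower was that of all genes. EDN3, an endothelin that acts on melanoblasts, was at 17.5, 11.3 and 9.92 CPM and stood at 655 CPM (611 to 700.1) in the E120 papilla-like cells, where KITLG was at 37.8 CPM. ASIP, the agouti protein that blocks MC1R, was at 463, 325 and 238 CPM and was highest in the same papilla-like cells, at 2066 CPM. It was widespread, in 97.4%, 71.7% and 85.4% of the cells of E60, E90 and E120. The median over the 37 clusters was 337 CPM for ASIP, against 4.51 CPM for EDN3. EDN3 and ASIP were thus highest in the same E120 cluster, and KITLG in another. ADAM10 and ADAM17, proteases that shed membrane ligands, were at 15.0, 42.1 and 27.6 CPM and at 4.95, 15.0 and 10.8 CPM.

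**Figure D5:**
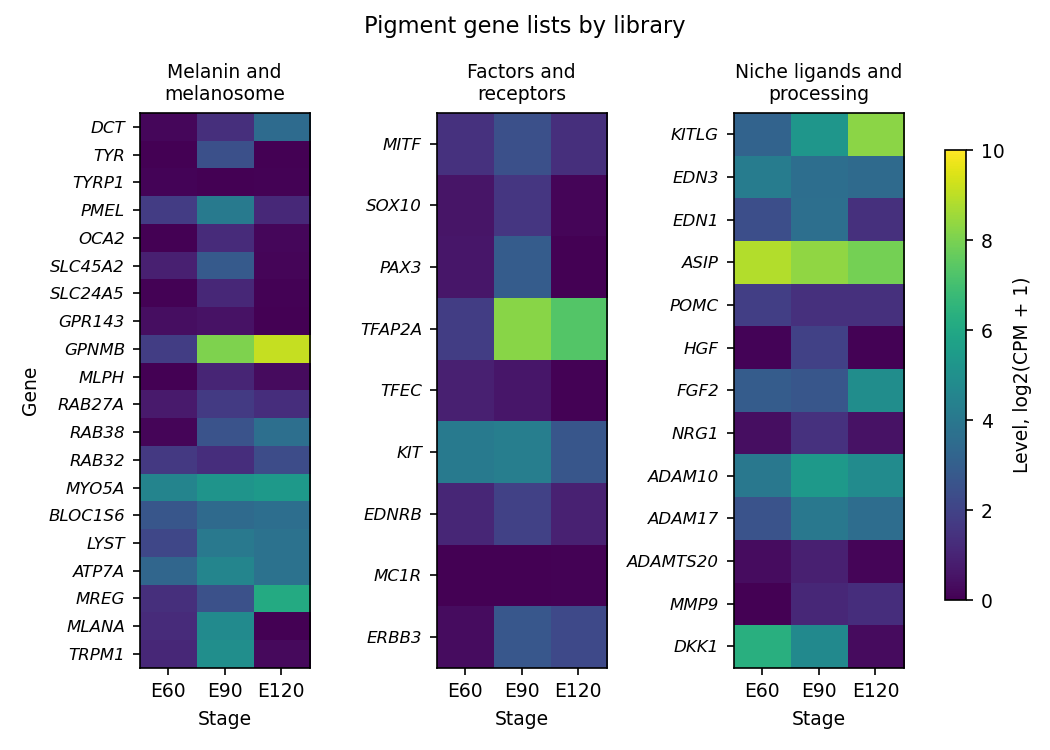
Levels of the measured genes of 3 pigment lists, with MLANA and TRPM1 added to the first, in the E60, E90 and E120 libraries, as log2(CPM + 1) in colour. PMEL, SLC45A2, TYR, PAX3, MLANA and TRPM1 are highest at E90, whereas KITLG, DCT, GPNMB and MREG are highest at E120.

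The genes most like each of the 3 genes over the 37 clusters were ranked by Pearson correlation of log2(CPM + 1) among 6411 named genes with at least 20 CPM in a cluster. Clusters of 1 library share its depth and its free RNA, so these values are descriptions. MLANA was closest to PAX3 (r = 0.95), TYR (0.95), TRPM1 (0.93), CDH19 (0.92), SLC45A2 (0.90) and IL17B (0.88). TRPM1 was closest to MLANA (0.93), CDH19 (0.88), SLC45A2 (0.88), PAX3 (0.87), TYR (0.87) and PITX1 (0.85). CDH19 is a cadherin of neural crest and Schwann cells. KITLG was closest to PTPRE (0.88), CMTM8 (0.86), RAP1GDS1 (0.85), PPP2R2A (0.83), CYFIP1 (0.83) and ASS1 (0.83), none of them a pigment list gene. Of these 6 genes, 4 stayed among the first 6 for KITLG by Spearman correlation, against 2 for MLANA and 0 for TRPM1. The correlation of KITLG was -0.08 with MLANA, 0.02 with TRPM1, -0.29 with KIT and 0.67 with DCT.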

How the data were processed

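Cells of 3 libraries, 1 per stage, were used as deposited. Per the labels, the stage opens each cell's name. Per the submitters' processing notes Cell Ranger 3.0.2 was used, and the genome build, annotation and filters are not given in the sources used here. The deposited values were natural log values, which the authors had scaled to 10000 per cell, as the values themselves show. UMI counts were recovered as whole multiples of each cell's smallest value, which 100.0% of nonzero values were within a tolerance of 0.01, with that smallest value taken as 1 UMI. The design had provided for counts or for means, and counts were used.

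Counts were summed over a library, cluster or class and given as CPM, with exact Poisson intervals, and shares with exact Clopper-Pearson intervals, all at 95%. The limit for a count of 0 is 3 counts. For each pair of stages log2(CPM + 1) of the earlier was subtracted from that of the later, and the difference was called at 2-fold for genes with at least 5 CPM in 1 library. Folds are ratios of CPM with exact binomial intervals. No test was possible across stages with 1 library each. All cells were clustered without correction between libraries (2000 variable genes, 30 principal components, 20 neighbours, Leiden resolution 1; Python 3.11.15 with scipy 1.17.1, scikit-learn 1.9.0, leidenalg 0.10.2 and igraph 0.11.9). A class needed 3 markers, each in at least 10% of the cells and at 2 times its median over clusters, and no other class's markers leading or tying among the 10 leading genes. No doublet caller was run and no cell was removed. Recovery, ratios, intervals and correlations were tested on simulated data.

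The text names the 3 genes, the 6 genes most like each, the genes of the 3 pigment lists and class markers. Genes outside this rule label clusters. Members and lists were chosen with earlier results of these data known. Of 12709 genes with a symbol, 11897 were found in the RefSeq list of ARS1.2, which was used for names and overlaps. A planned search of promoters for a motif was not run, since no sequence was used here.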

Additional observations from a re-analysis of the deposited data

How the results depend on the processing

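Counting depth limits the values of MLANA and TRPM1 at E60 and E120, which rest on 88, 0, 77 and 17 UMIs, and no alternative can show the spread between fetuses. No paired analysis was possible because each stage was 1 library. Of the 194 values computed under alternatives, 106 stayed within the counting interval, or within 1.5 times for a count of genes or cells, and 88 moved. No log2 ratio changed sign. Leaving out the richest cell, clustering the mixed cluster again and leaving out the top cluster were chosen after seeing the data.

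The log2 ratio of KITLG for E90 over E60 moved from 2.06 to 1.38 at a pseudocount of 10 CPM, 2.48 with cells weighted equally, 1.56 by median of ratios and 2.72 without the 6% of cells with the most UMIs. For E120 over E90 it moved from 3.01 to 2.75 at a pseudocount of 10 CPM, 3.48 by median of ratios and 3.12 in filtered cells, those with 1000 genes or more and no more than 10% mitochondrial counts. For E120 over E60 it moved from 5.07 to 5.21 and 4.12 at pseudocounts of 0.1 and 10 CPM, 5.56 with cells weighted equally and 5.82 without the deepest cells. Median of ratios shifted the median of all genes by -0.49, 0.45 and -0.04 in the 3 comparisons. The filter was uneven between libraries: it kept 6801 of 6849 E60 cells and 5902 of 6896 E120 cells, but 2756 of 6931 E90 cells.

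For MLANA, E90 over E60 moved from 3.53 to 4.18 and 1.67 at pseudocounts of 0.1 and 10 CPM, 3.10 by median of ratios, 4.35 in filtered cells, 3.22 without the deepest cells and 4.48 without the richest cell. E120 over E90 moved from -4.77 to -8.04 and -1.86 at those pseudocounts, -4.43 by median of ratios, -4.54 in filtered cells, -4.56 without the deepest cells and -4.95 without mitochondrial and haemoglobin genes. E120 over E60 moved from -1.23 to -3.86 and -0.18 at those pseudocounts, -0.19 in filtered cells and -0.19 without the richest cell.

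For TRPM1, E90 over E60 moved from 3.80 to 4.52 and 1.82 at pseudocounts of 0.1 and 10 CPM, 3.37 by median of ratios, 4.63 in filtered cells and 4.32 without the richest cell. E120 over E90 moved from -4.69 to -6.71 and -1.95 at those pseudocounts, -4.41 with cells weighted equally, -4.33 by median of ratios and -4.37 without the deepest cells. E120 over E60 moved from -0.89 to -2.19 and -0.14 at those pseudocounts, -0.19 in filtered cells and -0.27 without the richest cell. The pseudocount moves these values by its construction. The filtered cells did not include the E60 cell richest in MLANA and TRPM1. The cause of the moves not due to the pseudocount was not tested further.

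Shares of cells with KITLG at E60, E90 and E120 were 1.12%, 7.20% and 29.9% after thinning to 2000 UMIs and 0.526%, 3.79% and 20.3% after thinning to 1000, and the E120 share was 57.2% in filtered cells. For MLANA the E60 share was 0.0146% after thinning to 1000 UMIs, and the E90 share was 3.17% and 1.76% after thinning to 2000 and 1000 UMIs and 4.39% in filtered cells. For TRPM1 the shares were 0.102%, 3.06% and 0.058% after thinning to 2000 UMIs and 0.0292%, 1.90% and 0.029% after thinning to 1000.

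KITLG in epithelial-like cells of E120 moved from 303 CPM to 362 with cells weighted equally, 238 at resolution 0.5, 236 with the members and pigment list left out of the variable genes and 232 with genes centred within libraries. At E90 it moved from 37.2 CPM to 32.2 at resolution 0.5 and 31.4 with centred genes. Melanocyte-like cells numbered 0 by cluster in each library. Called one by one at 2, 3 and 5 UMIs they numbered 36, 9 and 3 in the E60 library, 142, 79 and 38 in E90, and 37, 9 and 1 in E120, and with the mixed cluster clustered again they numbered 1 at E60 and 11 at E90.

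Pigment list genes higher at E90 than at E60 numbered 12, and 6 at a 4-fold call, 22 at a minimum of 1 CPM and 5 at 20 CPM. Those lower at E90 numbered 1, and 0 at 4-fold. Genes lower at E120 than at E90 numbered 6, and 13 at 1 CPM and 1 at 20 CPM. Genes higher at E120 than at E60 numbered 8, and 5 at 20 CPM, and those lower numbered 2, and 1 at 4-fold or at 20 CPM. The shares of all genes were taken at the main setting only, so counts at the other settings have no such share beside them. Of the 6 genes most like MLANA, 2 stayed by Spearman correlation and 2 without the top cluster, and for TRPM1 0 and 1 stayed.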
